A study of Rattus norvegicus with 8 samples.

Results

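The genes described here are the 5 subunits of the transcription factor NF-kB (Nfkb1, Nfkb2, Rela, Relb and Rel) and 5 of its inhibitors and regulators (Nfkbia, Nfkbib, Nfkbie, Nfkbiz and Tnfaip3). They were chosen by their symbols, and all 10 were found among the 23487 genes of the table and had enough counts to be tested, as had 12124 genes in all. The macrophages came from the peritoneal cavity of female Wistar rats of 8 weeks, which had received needle-like carbon nanotubes (MWCNT-XNRI-7, called CNT-7, which cause mesothelioma) or tangled ones (CNT-T, which do not). The same mass of either particle was heated, suspended in saline with albumin and injected once into the peritoneal cavity, and each group held 4 rats, numbered 3, 5, 10 and 11 for CNT-7 and 1, 2, 12 and 13 for CNT-T. After 15 days, cells high in CD11b/c and dim for His48 were sorted as macrophages by flow cytometry. Untreated rats are not analysed here, and each comparison below is between the particles.

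NF-kB proteins act as dimers of subunits that share a REL homology domain, and in resting macrophages the dimers of RelA, c-Rel and p50 (from Nfkb1) are held in the cytoplasm by the IkB proteins, encoded by Nfkbia, Nfkbib and Nfkbie. Signals from Toll-like, IL-1 and TNF receptors activate the IKK kinase complex, which marks the IkB proteins for degradation, so that the dimers enter the nucleus and switch on genes of inflammation and survival. A slower, non-canonical branch processes the product of Nfkb2 to p52, which pairs with RelB. The response limits itself, because Nfkbia, Nfkbie, Nfkbiz (an IkB protein of the nucleus) and Tnfaip3 (A20, which edits ubiquitin chains on receptor complexes) are themselves NF-kB target genes, as are Nfkb1, Nfkb2, Rel and Relb.

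Promoter sequences are shown because the genes that rose and those that did not can be compared for matches to the kB consensus, the 10-base sequence that NF-kB dimers recognise. RefSeq sequences of the rat assembly GRCr8, which is not the assembly of the counts, were matched by symbol for 9 of the 10 genes, all but Relb. The window ran from 250 bases before to 50 after the annotated start, and both strands were searched. Matches were present in 7 of the 9 windows, while 4.18% of the 33465 promoters of the same length held one. Below are the 250 bases before the start of Tnfaip3, Nfkbiz, Nfkbie and Nfkb2, which were higher after CNT-7, and of Nfkbia, which did not pass the test, read along the strand of the gene with the matches in capitals.
Tnfaip3, chr1:15543980-15544229 (- strand): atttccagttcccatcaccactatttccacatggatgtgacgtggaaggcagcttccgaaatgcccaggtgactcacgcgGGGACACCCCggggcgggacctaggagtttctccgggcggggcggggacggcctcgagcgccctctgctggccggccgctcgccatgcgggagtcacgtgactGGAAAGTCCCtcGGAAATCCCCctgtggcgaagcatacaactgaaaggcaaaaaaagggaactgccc
Nfkbiz, chr11:58251471-58251720 (+ strand): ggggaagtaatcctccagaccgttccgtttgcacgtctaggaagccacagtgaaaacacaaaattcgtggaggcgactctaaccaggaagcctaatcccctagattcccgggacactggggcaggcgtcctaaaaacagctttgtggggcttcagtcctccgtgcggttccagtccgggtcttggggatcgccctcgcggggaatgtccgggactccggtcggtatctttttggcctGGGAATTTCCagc
Nfkbie, chr9:22947873-22948122 (- strand): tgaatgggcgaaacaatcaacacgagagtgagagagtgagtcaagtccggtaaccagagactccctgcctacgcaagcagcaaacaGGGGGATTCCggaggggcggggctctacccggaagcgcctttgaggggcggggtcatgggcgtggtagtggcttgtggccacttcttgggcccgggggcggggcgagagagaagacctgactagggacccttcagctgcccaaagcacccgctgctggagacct
Nfkb2, chr1:255108124-255108373 (+ strand): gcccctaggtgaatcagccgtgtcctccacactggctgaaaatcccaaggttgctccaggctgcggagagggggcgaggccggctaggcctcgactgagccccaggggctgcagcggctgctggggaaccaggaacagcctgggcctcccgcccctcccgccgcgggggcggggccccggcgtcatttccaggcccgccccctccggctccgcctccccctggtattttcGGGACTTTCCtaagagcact
Nfkbia, chr6:78597073-78597322 (- strand): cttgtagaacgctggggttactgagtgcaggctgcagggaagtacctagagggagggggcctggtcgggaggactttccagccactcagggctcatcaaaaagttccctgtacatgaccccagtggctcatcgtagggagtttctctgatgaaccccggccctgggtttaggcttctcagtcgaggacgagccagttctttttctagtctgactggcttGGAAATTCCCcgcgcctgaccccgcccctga

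Tnfaip3 held 3 matches, the nearest ending 46 bases before the start, and Nfkbie held 1 match that began 164 bases before it. Nfkbiz and Nfkb2 each held a match close to the start, beginning 13 and 20 bases before it. The match of Nfkb2, GGGACTTTCC, was present in 0.111% of all promoters, and that of Nfkbiz, GGGAATTTCC, in 0.0747%. A match of Rel, which did not pass the test, was as rare (GGGAAATCCC, 0.0956%). All of these sequences were read from the windows of the genes themselves, and each is only a part of what the consensus allows. Tnfaip3 also held the sequence of Nfkb2, on the other strand. Nfkb1 and, on the other strand, Nfkbia held the sequence of Nfkbiz as well, but neither gene passed the test. Matches were not limited to genes that rose, because Nfkbia (31 bases before the start), Rel (82 bases before, with a second match on the other strand that overlaps it) and Nfkb1 (3 bases after) held one each as well, whereas Nfkbib, which passed the test, and Rela held none. A match describes the letters in the window and not the binding of a factor.

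**Figure D1:**
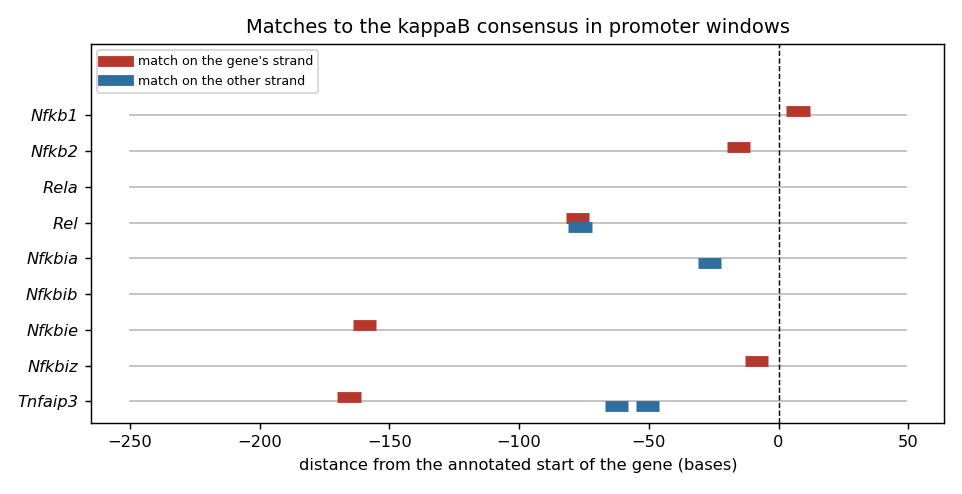
Position of matches to the kB consensus from 250 bases before to 49 bases after the annotated start (x axis, bases), one line per gene (y axis), red on the strand of the gene and blue on the other. Tnfaip3 has 3 matches, Rela and Nfkbib have 0, and the other genes have 1 or 2.

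In this comparison 6 of the 10 genes were significantly higher after CNT-7 than after CNT-T and 0 were lower. Tnfaip3 (2.12-fold), Nfkbiz (1.75-fold) and Nfkbie (1.56-fold) rose most. They were followed by both subunits of the non-canonical branch, Nfkb2 (1.48-fold) and Relb (1.43-fold), and by Nfkbib (1.21-fold). Nfkb1, Rela, Rel and Nfkbia did not pass the test. Of all genes tested, 13.9% were called higher and 14.0% lower at the same threshold, an adjusted p-value under 0.10 in edgeR's quasi-likelihood test. The median log2 fold change of the 10 genes was 0.39, beside 0.0083 over all genes tested. At an unadjusted p-value under 0.05 the count lower after CNT-7 was also 0 with edgeR, and DESeq2 gave 6 higher and 0 lower. The groups did not overlap for 5 genes, all higher after CNT-7, which was the case for 12.3% of all genes.

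**Figure D2:**
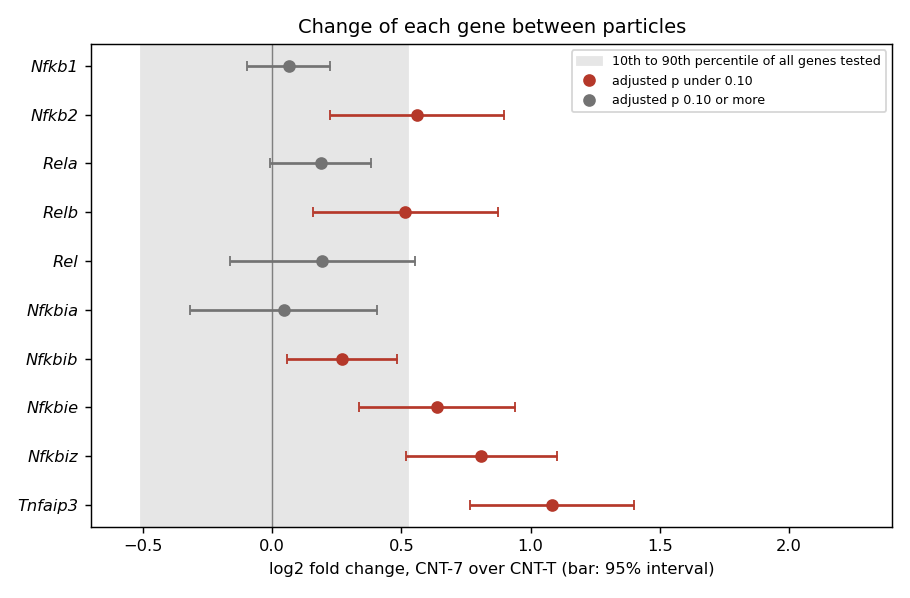
Log2 fold change, positive where higher after CNT-7 (x axis), for each of the 10 genes (y axis), with the 95% interval as a bar and genes with an adjusted p-value under 0.10 in red. The shaded band holds the middle of all genes tested, from the 10th percentile (-0.51) to the 90th (0.53), and Nfkb2, Nfkbie, Nfkbiz and Tnfaip3 lie to its right.

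Tnfaip3 (ENSRNOG00000049517) changed most. Levels are given in CPM, counts scaled to a library of 1000000 after TMM normalization. After CNT-7 it was at 16.7, 21.98, 18.2 and 14.9 CPM in rats 3, 5, 10 and 11, and after CNT-T at 9.59, 7.12, 8.87 and 8.34 CPM in rats 1, 2, 12 and 13. The lowest CNT-7 rat thus stood above the highest CNT-T rat. The log2 fold change was 1.08 (standard error, SE, 0.14, adjusted p = 0.00105), within a 95% interval from 1.70-fold to 2.64-fold, and it exceeded that of 95.5% of the genes tested.

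Nfkbiz (ENSRNOG00000031163) encodes IkB-zeta, which binds p50 on chromatin and is needed for a set of secondary response genes in macrophages. Its levels after CNT-7 were 34.5, 50.9, 36.7 and 37.0 CPM in rats 3, 5, 10 and 11, and after CNT-T 21.3, 21.4, 22.3 and 25.9 CPM in rats 1, 2, 12 and 13. Rat 5 was far above the other CNT-7 rats, and the groups did not overlap. The log2 fold change was 0.81 (SE of 0.13 and an adjusted p = 0.00281), and without CNT-7 rat 5 it was 0.67 (adjusted p = 0.00311).

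Nfkbie (ENSRNOG00000019907), the gene of IkB-epsilon, was at 58.7, 74.7, 59.7 and 54.4 CPM in CNT-7 rats 3, 5, 10 and 11. In CNT-T rats 1, 2, 12 and 13 it was at 48.1, 40.4, 38.4 and 32.0 CPM. The groups did not overlap, although CNT-T rat 1 came near the lowest of them. On the log2 scale the difference was 0.64 (SE of 0.14 and an adjusted p = 0.00927).

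Nfkbia (ENSRNOG00000007390), the gene of IkB-alpha, whose fast resynthesis ends a pulse of NF-kB activity, did not follow these genes. The CNT-7 rats fell on both sides of the CNT-T rats, with 411 and 425 CPM in rats 5 and 10 but 261 and 277 CPM in rats 3 and 11. The CNT-T rats lay close together, at 312, 352, 356 and 312 CPM in rats 1, 2, 12 and 13. The log2 fold change was 0.04 (SE of 0.16 and an adjusted p = 0.878), and the 95% interval, from 0.802-fold to 1.33-fold, leaves room for a moderate change in either direction. Its sign turned without CNT-7 rat 5 (-0.055) or rat 10 (-0.072).

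Nfkbib (ENSRNOG00000020063) encodes IkB-beta. It was at 12.1, 12.999, 12.5 and 13.1 CPM in CNT-7 rats 3, 5, 10 and 11 and at 11.6, 10.6, 9.56 and 10.2 CPM in CNT-T rats 1, 2, 12 and 13. The groups stood apart by a narrow margin, and the log2 fold change was 0.27 (SE of 0.09 and an adjusted p = 0.0737). The call was lost when any single rat other than CNT-T rat 1 was left out, with adjusted p-values from 0.105 to 0.185 in edgeR.

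Among the subunits, Nfkb2 (ENSRNOG00000019311) rose most. It was at 45.9, 50.6, 41.8 and 39.7 CPM in CNT-7 rats 3, 5, 10 and 11 and at 38.1, 30.3, 29.8 and 22.3 CPM in CNT-T rats 1, 2, 12 and 13. The lowest CNT-7 rat and the highest CNT-T rat were close, but did not overlap. This was a log2 fold change of 0.56 (SE of 0.15 and an adjusted p = 0.0258).

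Relb (ENSRNOG00000033235), which encodes the partner of p52, had between 125 and 279 counts per rat, few enough for counting error to add to the spread. Its levels were 8.48, 9.35, 6.97 and 7.96 CPM in CNT-7 rats 3, 5, 10 and 11 and 7.07, 5.65, 5.70 and 4.48 CPM in CNT-T rats 1, 2, 12 and 13. CNT-7 rat 10 was just below CNT-T rat 1, so that the groups overlapped by one pair of rats. The log2 fold change was 0.52 (SE of 0.16 and an adjusted p = 0.0475), and the call was lost without CNT-7 rat 3 or 5 or CNT-T rat 2 or 12 (adjusted p from 0.103 to 0.129).

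Nfkb1 (ENSRNOG00000023258), the gene of p105 and p50, hardly varied between rats. It was at 159, 171, 153.5 and 177 CPM in CNT-7 rats 3, 5, 10 and 11 and at 166, 161, 157 and 149 CPM in CNT-T rats 1, 2, 12 and 13. The groups overlapped and differed by 0.06 on the log2 scale (SE of 0.07 and an adjusted p = 0.583), and the 95% interval reached from 0.936-fold to 1.17-fold.

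Rela (ENSRNOG00000030888), the gene of the main activating subunit, was nearly level in the CNT-7 rats, with 61.9, 66.4, 62.9 and 63.0 CPM in rats 3, 5, 10 and 11. The CNT-T rats spread further, with 63.8, 58.8, 51.5 and 49.05 CPM in rats 1, 2, 12 and 13. CNT-T rat 1 lay within the range of the CNT-7 rats, and the difference did not pass the test (log2 fold change 0.19, SE of 0.09, adjusted p = 0.170), whereas without CNT-T rat 1 it passed (log2 fold change 0.26, adjusted p = 0.0529).

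Rel (ENSRNOG00000054437), the gene of c-Rel, was at 11.5, 14.3, 12.1 and 8.25 CPM in CNT-7 rats 3, 5, 10 and 11. The CNT-T rats had 10.6, 8.93, 10.2 and 10.7 CPM in rats 1, 2, 12 and 13. CNT-7 rat 11 was the lowest of all 8 rats and rat 5 the highest. The log2 fold change was 0.19 (SE of 0.16 and an adjusted p = 0.441), and without CNT-7 rat 11 it was 0.32 (adjusted p = 0.0942).

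**Figure D3:**
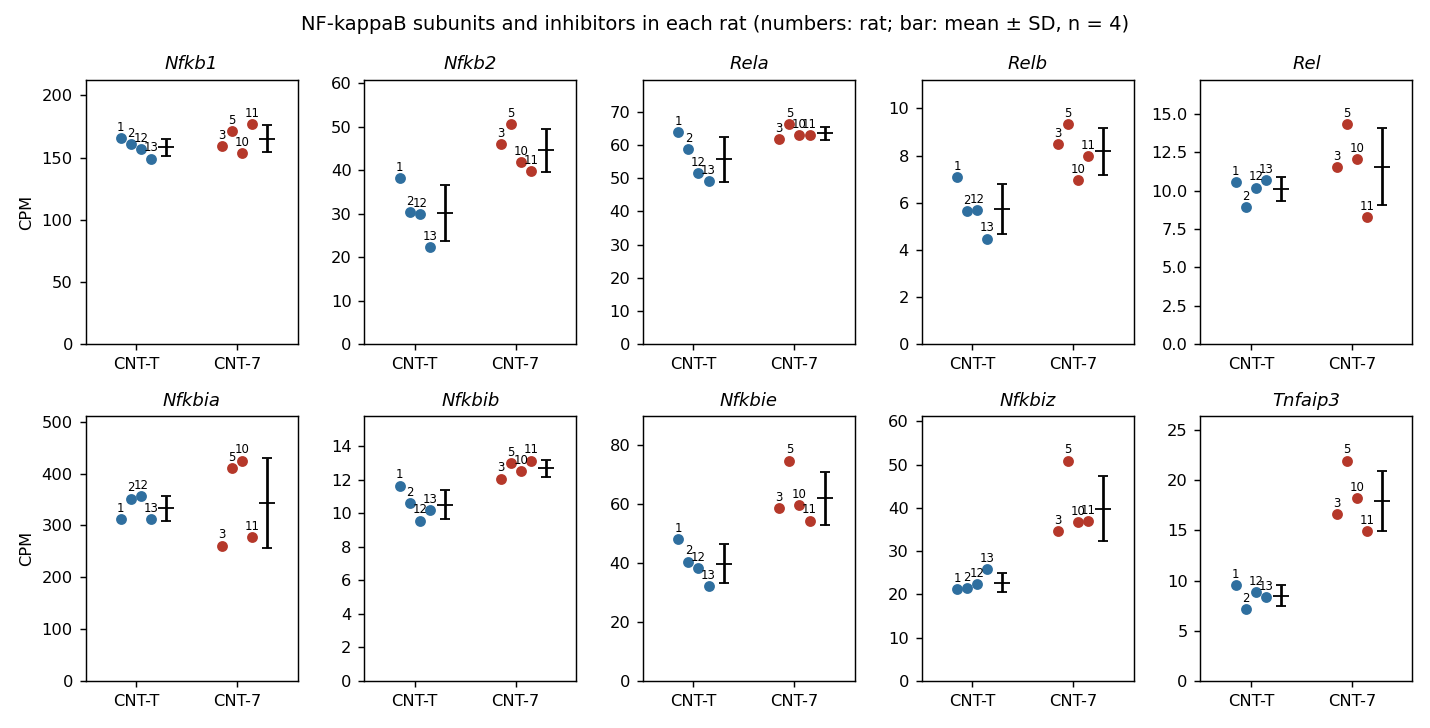
CPM (y axis, from 0) of the 10 genes in each rat, with CNT-T in blue, CNT-7 in red, the rat number above each point and the mean ± SD of 4 rats as a bar. Tnfaip3, Nfkbiz, Nfkbie, Nfkb2 and Nfkbib are free of overlap, and Nfkbia splits the CNT-7 rats into 261 and 277 CPM against 411 and 425 CPM.

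The order of the rats was shared by many of the 10 genes, and was not examined over all genes tested. CNT-7 rat 5 was the highest of its group for 7 of the 10 genes (Nfkb2, Rela, Relb, Rel, Nfkbie, Nfkbiz and Tnfaip3). In the CNT-T group, rat 1 was the highest for 7 genes and rat 13 the lowest for 5, namely Nfkb1, Nfkb2, Rela, Relb and Nfkbie. Nfkbiz, Nfkbia and Rel went against this order in the CNT-T rats, since Nfkbiz and Nfkbia were lowest in rat 1 and Nfkbiz and Rel were highest in rat 13. Without CNT-7 rat 5, 4 genes were called (Nfkb2, Nfkbie, Nfkbiz and Tnfaip3), and 4 were also called without CNT-7 rat 3 or CNT-T rat 2 or 12. The number of all genes called higher fell too, from 1686 to between 1261 and 1382 in these 4 cases.

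**Figure D4:**
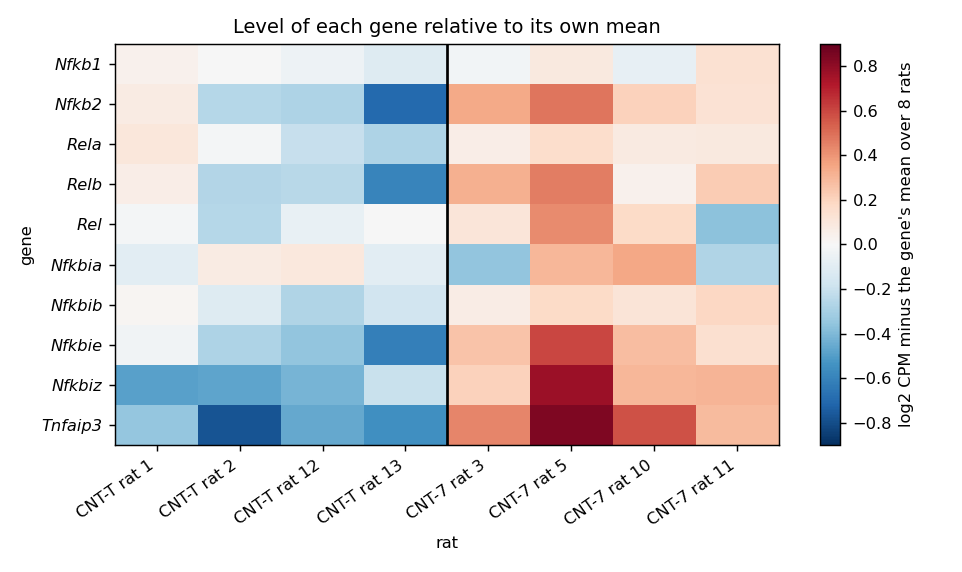
Log2 CPM of each gene (rows) in each rat (columns) minus the mean of that gene over the 8 rats, in red above and in blue below it. CNT-7 rat 5 is highest of its group for 7 genes, and CNT-T rat 13 is lowest of its group for 5.

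Ratios within a rat show whether one gene moved more than another, without the effect of the library scaling. Over the 6 ratios computed, the exact permutation test (two-sided) over the 70 divisions of the 8 rats cannot give a p-value below 0.0286. Nfkbie relative to Nfkbib was 4.88 ± 0.663 (SD, n = 4) after CNT-7 and 3.77 ± 0.443 after CNT-T, and relative to Rela it was 0.972 ± 0.110 and 0.710 ± 0.0477, without overlap in either case (exact permutation test, p = 0.0286 and adjusted p = 0.0856 for both). Nfkbie relative to Nfkbia was 0.186 ± 0.0352 after CNT-7 and 0.120 ± 0.0234 after CNT-T, with overlap (exact p = 0.0571, adjusted p = 0.0856). The ratio of Nfkb2 to Nfkb1 was 0.270 ± 0.0323 and 0.190 ± 0.0330 (exact p = 0.0571, adjusted p = 0.0856), and that of Relb to Rela 0.129 ± 0.0135 and 0.102 ± 0.0101 (exact p = 0.0857, adjusted p = 0.103). The ratio of Nfkb2 to Relb was 5.45 ± 0.416 and 5.24 ± 0.188 (exact p = 0.343, adjusted p = 0.343). Each ratio set a gene called higher over another of these genes in the same rats. The p-values of the ratios are therefore not separate from the tests of the single genes. None of the ratios is corrected for transcript length, so they compare the groups and not the genes.

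Kinases and adaptors lie upstream of these genes. Of 11 kinases tested, 2 were significantly higher after CNT-7 and 0 lower, and their median log2 fold change was 0.03. One was Map3k8, the kinase TPL2 that p105 holds inactive, with 72.0 ± 12.4 CPM (SD, n = 4) in CNT-7 rats and 49.4 ± 9.55 CPM in CNT-T rats (log2 fold change 0.54, adjusted p = 0.0354). The other was Ikbkg, the regulatory subunit NEMO of the IKK complex, with 24.9 ± 1.82 and 21.4 ± 1.14 CPM (log2 fold change 0.22, adjusted p = 0.0787). The catalytic subunits of the complex did not pass the test, with log2 fold changes of 0.18 for Chuk and -0.03 for Ikbkb. Map3k14, the kinase NIK of the non-canonical branch, had 8.45 ± 1.26 CPM in CNT-7 rats and 6.24 ± 1.70 CPM in CNT-T rats (adjusted p = 0.146).

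Of 23 adaptors and ubiquitin ligases tested, 4 were higher after CNT-7 and 0 lower, with a median log2 fold change of 0.07. Birc3, the ubiquitin ligase cIAP2 and itself a target of NF-kB, was at 12.1 ± 1.33 CPM in CNT-7 rats and 6.45 ± 1.44 CPM in CNT-T rats (log2 fold change 0.91, adjusted p = 0.00444). Myd88, the adaptor of most Toll-like receptors and of the IL-1 receptor, was at 78.8 ± 7.58 and 60.0 ± 3.63 CPM (log2 fold change 0.39, adjusted p = 0.00916). Traf1 and Irak3, which encodes the inhibitory IRAK-M, had log2 fold changes of 0.42 and 0.26. The calls of Ikbkg, Traf1 and Irak3 were each lost when 1 of 6 rats was left out (CNT-7 rats 3 and 5 and CNT-T rats 2, 12 and 13 for all of them, with CNT-7 rat 10 for Ikbkg and Traf1 and rat 11 for Irak3), with adjusted p-values from 0.106 to 0.198. The percentages called, all of them higher, were 18.2% of the kinases and 17.4% of the adaptors, near the 13.9% of all genes called higher.

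In the list of other IkB family members and negative regulators, genes were called in both directions, but none of those called was an IkB family gene. Of 17 tested, 5 were higher and 3 lower after CNT-7 (47.1% called, beside 27.9% of all genes). The largest rises were of Zc3h12a, the RNase Regnase-1 that degrades cytokine mRNAs, from 43.8 ± 3.799 CPM in CNT-T rats to 80.7 ± 16.8 CPM in CNT-7 rats (log2 fold change 0.88, adjusted p = 0.00237), and of Tnip1, which encodes a partner protein of A20, from 64.8 ± 5.79 to 109 ± 17.4 CPM (0.75, adjusted p = 0.00238). Tnip2, of the same family of A20-binding proteins, rose by 0.48 and Nkiras2 by 0.30 on the log2 scale. The genes that fell were Pdlim2 (log2 fold change -1.25), Commd1 (-0.29) and Otud7b (-0.26), which encodes the deubiquitinase Cezanne. Of these, Pdlim2 lost its call without CNT-7 rat 10 or CNT-T rat 1 or 12 (adjusted p from 0.122 to 0.156), and Commd1 without CNT-7 rat 5 or 10 or CNT-T rat 1 or 2 (from 0.101 to 0.134). Bcl3, a nuclear IkB protein named after its values were seen, had 19.7 ± 3.83 CPM in CNT-7 rats and 11.5 ± 6.31 CPM in CNT-T rats and did not pass the test (log2 fold change 0.77, adjusted p = 0.116). Nfkbid, another nuclear IkB gene, did not pass it either and had the other sign (-0.33, adjusted p = 0.211). The deubiquitinase gene Cyld differed little (-0.04, adjusted p = 0.733).

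Genes known as NF-kB targets in macrophages did not move as one group. Of 37 listed, 35 were in the table and 26 were tested. Of these, 9 were higher, 5 lower and 12 not called, with a median log2 fold change of 0.25. The share called was 53.8%, beside 27.9% of all genes (13.9% higher and 14.0% lower). The complement gene C3 was at 1253 ± 394 CPM in CNT-7 rats and 150.1 ± 52.8 CPM in CNT-T rats (log2 fold change 3.06, adjusted p = 0.000438). Cd83, a surface protein of activated antigen-presenting cells, was at 4.42 ± 0.933 and 0.631 ± 0.127 CPM (2.80, adjusted p = 0.000208). Plau, the gene of urokinase, was at 126 ± 62.9 and 25.1 ± 1.85 CPM (2.33, adjusted p = 0.00110), and the monocyte chemokine gene Ccl2 at 109 ± 19.4 and 23.1 ± 11.2 CPM (2.24, adjusted p = 0.00105).

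Other targets were lower after CNT-7. Mmp9, the gene of a matrix metalloproteinase, was at 0.785 ± 0.201 CPM in CNT-7 rats and 8.89 ± 8.48 CPM in CNT-T rats (log2 fold change -3.50, adjusted p = 0.00411), and without CNT-T rat 1 the log2 fold change was -2.58. The neutrophil chemokine gene Cxcl2 was at 12.4 ± 4.96 and 32.7 ± 25.3 CPM (-1.40, adjusted p = 0.0736). Its call was lost without CNT-7 rat 3, 10 or 11 or CNT-T rat 2 or 13, and without CNT-T rat 13 its log2 fold change was -0.74 (adjusted p = 0.186). The adhesion molecule gene Vcam1 (-1.25) was at low levels, 0.665 ± 0.281 and 1.59 ± 0.689 CPM, and lost its call without CNT-7 rat 5 or 10 or CNT-T rat 12 or 13 (adjusted p from 0.111 to 0.140), whereas Bcl2l1, which encodes the survival protein BCL-XL, fell by 0.49 on the log2 scale from 81.0 ± 7.22 to 57.9 ± 11.8 CPM (adjusted p = 0.0356). Of the cytokine genes, named after their values were seen, Il1b was higher after CNT-7, with 1.45 ± 0.381 against 0.230 ± 0.119 CPM and no overlap (log2 fold change 2.61, adjusted p = 0.00198). Tnf had 2.03 ± 0.757 CPM in CNT-7 rats and 2.79 ± 0.555 CPM in CNT-T rats (adjusted p = 0.284). Il6 had at most 13 counts in any rat and was not tested, with 0.290 to 0.433 CPM in CNT-7 rats and 0 to 0.107 CPM in CNT-T rats. Il12b, Csf3 and Ccl20 had 0 counts in every rat, which allows up to 0.109 CPM in any library (3 counts, counting error alone).

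**Figure D5:**
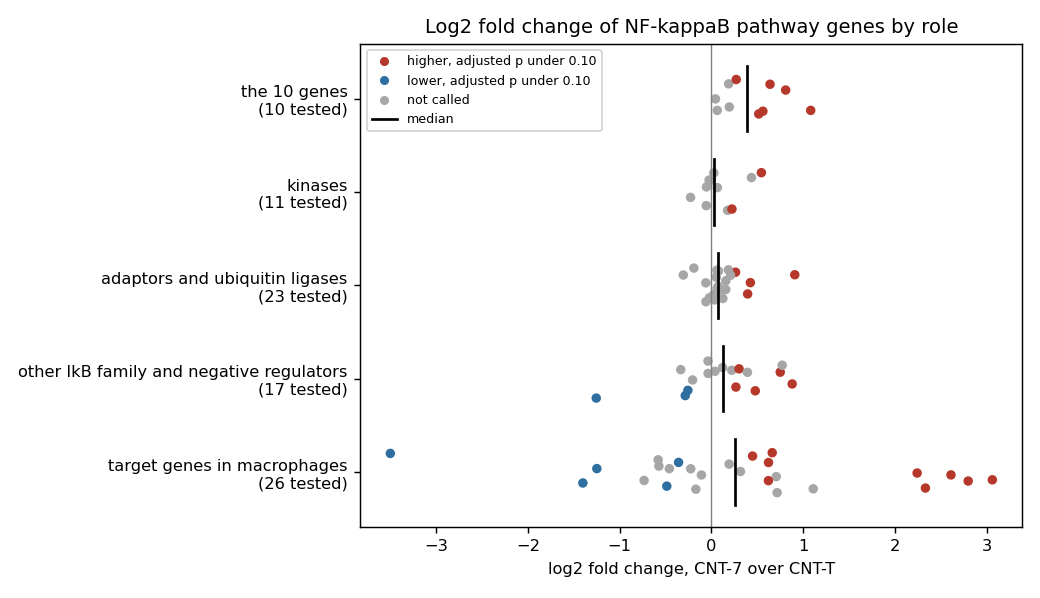
Log2 fold change, positive where higher after CNT-7 (x axis), for the 10 genes and for 4 lists of other pathway genes (y axis), with a point per gene, red for significantly higher, blue for significantly lower, grey for not called, and a line at the median. The medians are 0.39 for the 10 genes, 0.03 for kinases, 0.07 for adaptors, 0.12 for other regulators and 0.25 for targets.

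Markers of the sorted cells and of other cells were examined beside these values. Macrophage markers were abundant in every rat, for example Csf1r with 1220 ± 68.2 CPM in CNT-7 rats and 1531 ± 143 CPM in CNT-T rats. Of 9 such markers 5 were lower and 2 higher after CNT-7 (77.8% called, beside 27.9% of all genes). The falls included Cd163, a scavenger receptor of resident macrophages, from 582 ± 94.0 to 180 ± 60.8 CPM (log2 fold change -1.69, adjusted p = 0.00107), and Adgre1, the gene of F4/80, from 592 ± 56.6 to 271 ± 40.7 CPM (-1.13, adjusted p = 0.000404), while Cd14 (0.46) and Gata6 (0.30) rose. The paper links GATA6 as well as CD163 to resident peritoneal macrophages, so markers of resident cells moved in both directions. Of 12 immediate early genes tested, which respond to stimulation and also to handling of cells, 8 were higher after CNT-7 and 1 lower. The share called was 75%, beside 27.9% of all genes (13.9% higher and 14.0% lower). Fos rose from 6.39 ± 0.707 to 31.0 ± 14.2 CPM (log2 fold change 2.28, adjusted p = 0.000780), whereas Egr1 fell by 1.86 on the log2 scale. CNT-7 rat 5, highest for 7 of the 10 NF-kB genes, also had the highest sum of these 12 genes (1002 CPM, with the remaining CNT-7 rats at 559 to 723 CPM and the CNT-T rats at 410 to 834 CPM) and the highest Fos (51.8 CPM). The overlap of these sums came from the heat shock gene Hspa1b, at 448 CPM in CNT-T rat 13. Summed without it, a choice made after seeing the data, the other 11 genes were at 512 to 819 CPM in CNT-7 rats and at 381 to 402 CPM in CNT-T rats, without overlap.

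The same rat had the highest level of the T cell gene Cd3e, at 2.11 CPM, beside at most 0.506 CPM in the other CNT-7 rats and 0.231 CPM in the CNT-T rats. The sum of 8 T and NK cell markers ranged from 4.85 to 12.5 CPM in CNT-7 rats and from 4.05 to 4.53 CPM in CNT-T rats, and of the 2 tested Cd2 was higher. The 6 B cell markers summed to between 73.8 and 125 CPM and between 129 and 148 CPM, nearly all from Cd22, with Pax5 at 0 in 7 rats. The 6 dendritic cell markers summed to between 271 and 389 CPM and between 463 and 733 CPM, nearly all from Fscn1, which was lower after CNT-7, while Ccr7 and Clec9a were higher at 1.503 ± 1.18 and 1.32 ± 0.628 CPM. The 8 neutrophil markers summed to between 33.5 and 62.6 CPM and between 26.0 and 68.4 CPM, with Mpo at 0 in every rat. The sum of 10 eosinophil and mast cell markers ranged from 1.08 to 9.89 CPM and from 0.148 to 2.41 CPM, and the 7 mesothelial markers to at most 0.938 CPM, with Epx, Wt1 and Upk3b at 0 in every rat. The part of these cells and genes in the levels of the NF-kB genes was not tested, and in sorted bulk cells a change in RNA per cell and a change in the share of cells cannot be told apart. Without CNT-7 rat 5, the edgeR adjusted p-values of Tnfaip3, Nfkbiz, Nfkbie and Nfkb2 were 0.00295, 0.00311, 0.0254 and 0.0751. Relb and Nfkbib lost their calls without this rat (adjusted p = 0.129 and 0.160). Omission of this rat does not test the part of other cells or of immediate early genes.

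For each of the 10 genes, the gene with the most similar levels was sought among the named genes with a mean of at least 10 CPM, by Pearson's r of log2 CPM over the 8 rats. It was Serinc3 for Tnfaip3 (r = 0.99), Klf6 for Nfkbiz (0.985), Selplg for Nfkbie (0.988), Cyth2 for Nfkb2 (0.984), Klf3 for Relb (0.991) and Antxr2 for Nfkbib (0.97). For Nfkb1, Rela, Rel and Nfkbia it was Tex264, Ppp6r1, Cdc14b and Pip4k2c, with r between 0.943 and 0.988. As each r was the highest of 7891 or 7892 and includes the difference between the groups, it only describes these rats.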

How the data were processed

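RNA of sorted peritoneal macrophages was sequenced (stranded mRNA libraries) in 4 rats per particle. The authors quantified reads with Salmon against Ensembl cDNA sequences (Rnor_6.0), imported the estimates with tximeta, and deposited estimated counts per gene, as whole numbers and without normalization (27195157 to 33732981 per rat). Groups and rat numbers came from the titles, and 0 columns were left out. Its Salmon version: not given in the sources used here.

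Counts were kept by filterByExpr (minimum count 10, minimum total 15), normalized with TMM and tested with the quasi-likelihood test of edgeR 4.0.16 (R 4.3.3) over all 12124 genes with Benjamini-Hochberg adjustment, and called at an adjusted p-value under 0.10, the threshold of the study. A positive log2 fold change means higher after CNT-7. Standard errors are the log2 fold change over the square root of F. Length offsets were not used, and without transcript lengths no levels are compared between genes. Nothing in the labels ties rats to litters or days, so an effect of these cannot be told apart from that of the particle. The p-values weigh the difference between the groups against the spread between these rats. No pair of libraries within a group agreed within counting noise (chi-square per degree of freedom at least 31.6). On simulated counts, edgeR recovered 168 of 197 changed genes among 12023 tested, and 13 of 181 calls (7.18%) were false. DESeq2 recovered 172, but 52 of its 224 calls (23.2%) were false. In the rats a larger share of genes was called (27.9%), for which these rates were not tested. The rates were not split by the size of the difference. Recovery of differences such as those of Nfkbiz (log2 fold change 0.81), Nfkbie (0.64), Nfkb2 (0.56), Relb (0.52), Nfkbib (0.27) and Rela (0.19) was not tested.

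The 10 genes and the lists of pathway and marker genes were chosen with earlier results of these data known, and the lists come from general knowledge. Pathway genes named with values are the 4 largest rises and falls per list among genes called with a mean of at least 1 CPM. Others were named after their values were seen. Of the listed genes, Ticam1, Rnf11, Nos2, Saa3, Cd79a and Hspa1a are not analysed here. The search for similar genes added a prior count of 2. Alternatives were DESeq2 1.42.0, upper-quartile normalization, other filters, a threshold of 0.05, a block for low against high rat numbers, and omission of each rat. Promoter windows came from RefSeq (GRCr8).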

Additional observations from a re-analysis of the deposited data

Results flagged for a closer look

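Nfkbiz in CNT-7 rat 5, at 50.9 CPM, stood apart from the other CNT-7 rats (34.5 to 37.0 CPM), with a gap to the nearest rat of 0.852 of the range of its group, above Dixon's 95% critical value for 4 samples. It was the only such value among the 20 groups of 4 rats examined, and chance gives about 1 in 20.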

How the results depend on the processing

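The number of the 10 genes called higher, 6, was between 4 and 7 over the alternatives run, and the number called lower was 0 in each. The genes differed, since Rela was gained without CNT-T rat 1, and without CNT-7 rat 11 Rel was gained and Nfkbib lost. Of 140 log2 fold changes of the 10 genes under the alternatives, 123 kept their direction and their side of the threshold, 13 lost their call, 2 gained one and 2 turned in sign. Nfkbib lost its call with no filter on low counts and at an adjusted p-value under 0.05 (log2 fold change 0.27 in both). With each rat left out in turn, log2 fold changes ranged from 0.23 to 0.32 for Nfkbib, from 0.41 to 0.63 for Relb, from 0.13 to 0.26 for Rela, from 0.072 to 0.32 for Rel and from -0.072 to 0.16 for Nfkbia. Of 293 values of the named pathway genes, 45 lost their call and 0 turned in sign. Pathway genes called lower fell from 8 to 4 at an adjusted p-value under 0.05 and to between 5 and 8 with each rat left out, 5 being without CNT-7 rat 10. Apart from fewer rats or a stricter threshold, the cause of these changes was not tested. No paired analysis was possible because no rat number is shared by both groups. With the range of the rat numbers (up to 5, or 10 and above) as a block, 6 of the 10 genes were higher. The scalings moved the median of all genes by less than 0.1 on the log2 scale. The 4 rats per group limit what can be seen for small changes such as those of Rela and Rel.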
